A study of Mus musculus with 6 samples.

Results

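The core autophagy genes are 10 genes that carry the successive steps by which a cell encloses part of its own cytoplasm for breakdown: Ulk1, Becn1, Atg5, Atg7, Atg12, Atg16l1, Map1lc3a, Map1lc3b, Gabarapl2 and Sqstm1. They were taken by gene name from tables of 54532 genes. Each name had 1 entry, and all 10 were among the 18868 genes abundant enough to be tested. Their transcripts were measured in oocytes of C57BL/6J mice, in 3 control and 3 AMH libraries. The hormone AMH (anti-Müllerian hormone, which granulosa cells of growing follicles secrete and which restrains the recruitment of resting follicles) was the recombinant mouse protein made in E. coli. It was given at a daily intraperitoneal dose of 300 ng, begun in pre-pubertal mice 21 days old, and the labels give both groups an age of 6 to 7 weeks. The labels do not say whether controls were injected, how many oocytes of which stage made up a library, whether cumulus cells were removed, or whether each library came from separate animals. The p-values therefore measure no more than library-to-library spread, part or all of which could be technical.

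Autophagy begins when the ULK1 kinase complex activates a lipid kinase complex built on Beclin 1, which marks the membrane where a double-walled vesicle, the autophagosome, will grow. A pair of ubiquitin-like reactions then follows, in which ATG7 activates ATG12 for linkage to ATG5, the ATG12-ATG5 conjugate joins ATG16L1, and this assembly attaches proteins of the Atg8 family (LC3 and GABARAP) to lipid on the growing membrane. Receptors such as p62, the product of Sqstm1, bind ubiquitin-tagged cargo and Atg8-family proteins at once and are degraded with their cargo. In the ovary, loss of Becn1 or Atg7 is known to reduce the number of germ cells around birth. Maternal Atg5 is known to be needed by early mouse embryos that make no Atg5 of their own. These libraries measure transcripts, not the conjugated proteins or the flow of cargo through the pathway.

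Library depth ranged from 66392859 to 72109080 counts. The oocyte identity of the libraries was borne out by markers: all 18 listed oocyte genes were detected and tested, led by Gdf9 (5457 to 11913 CPM) and the oocyte linker histone gene H1foo (4685 to 10189.7 CPM). CPM express a gene's counts per unit of library size, here after TMM scaling, which adjusts for a few genes taking a large share of a library. Control 3 and AMH 3 stood apart from their groups, since the pair of libraries with the most similar counts was that pair, across the groups (chi-square of 55.9 per degree of freedom). The labels of both were kept as deposited, and whether they are right was not tested.

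Promoters of 4 core genes are shown because 3 of them, Gabarapl2, Map1lc3b and Sqstm1, had the same order of libraries in the results below, while Atg5 had the most negative fold change of the 10. The RefSeq promoter table (GRCm38.p6) held 6 of the 10 genes. Each window spans 250 bases before to 50 bases after the start site and is written 5′ to 3′ on the strand of the gene. Capitals mark a match to 1 of the motifs searched.
Gabarapl2, chr8:111940453-111940752 (+): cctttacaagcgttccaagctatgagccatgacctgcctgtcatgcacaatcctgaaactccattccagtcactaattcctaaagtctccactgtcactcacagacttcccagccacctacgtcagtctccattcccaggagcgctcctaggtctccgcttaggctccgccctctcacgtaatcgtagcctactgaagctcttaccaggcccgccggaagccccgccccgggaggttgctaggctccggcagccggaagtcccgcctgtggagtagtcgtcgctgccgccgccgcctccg
Map1lc3b, chr8:121590188-121590487 (+): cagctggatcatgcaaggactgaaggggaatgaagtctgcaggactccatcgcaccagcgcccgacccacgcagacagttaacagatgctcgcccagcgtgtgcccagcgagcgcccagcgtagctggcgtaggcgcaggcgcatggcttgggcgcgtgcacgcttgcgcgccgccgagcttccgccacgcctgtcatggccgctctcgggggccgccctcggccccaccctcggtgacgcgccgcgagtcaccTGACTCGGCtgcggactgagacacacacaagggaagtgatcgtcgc
Sqstm1, chr11:50210771-50211070 (-): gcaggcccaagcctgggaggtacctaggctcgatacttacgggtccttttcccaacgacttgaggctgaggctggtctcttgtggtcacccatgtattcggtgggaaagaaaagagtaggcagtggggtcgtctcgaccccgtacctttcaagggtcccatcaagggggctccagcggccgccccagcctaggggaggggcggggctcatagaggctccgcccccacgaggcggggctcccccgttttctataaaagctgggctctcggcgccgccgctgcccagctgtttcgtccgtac
Atg5, chr10:44268089-44268388 (+): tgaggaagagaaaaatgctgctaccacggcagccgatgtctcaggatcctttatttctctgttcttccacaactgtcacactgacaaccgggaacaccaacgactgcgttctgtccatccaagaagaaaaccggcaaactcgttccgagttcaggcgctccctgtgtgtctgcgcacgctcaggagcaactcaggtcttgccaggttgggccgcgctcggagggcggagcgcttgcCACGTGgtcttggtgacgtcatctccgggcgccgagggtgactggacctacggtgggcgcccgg
Among these 4 windows, the E-box CACGTG, the letters bound by TFEB-type factors, was found in that of Atg5, 14 bases before the start site. It was also in the window of Atg7, not shown, 132 bases before the start site given there. That window (chr6:114670846-114671145) lies inside the gene, whose deposited entry begins at 114643097, so it is not at the start of that entry. This palindrome, which reads the same on both strands, occurred in 7.15% of 32851 promoters of the same length. The antioxidant response element core TGACNNNGC, searched on both strands, occurred in the Map1lc3b window as TGACTCGGC, at bases 255 to 263 of the window, and in 12.4% of all promoters. The forkhead motif TGTTTAC, searched on both strands and present in 3.65% of all promoters, was in none of the 6 windows of core genes. Each window held at most 1 match, so no matches overlapped. The 4 windows shown were rich in G and C, where the median of all promoters was 52.7%. They held 59.3% for Atg5, 60.0% for Gabarapl2, 63.3% for Sqstm1 and 68.0% for Map1lc3b. Of the windows not shown, that of Ulk1 held 68.0% and that of Atg7 only 42.7%. A match describes the letters alone, and its absence says only that the letters are not in this window.

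The transcripts of the 3 core Atg8-family genes all had higher values in each AMH library than in any control, by 1.72-fold to 3.07-fold between groups. Of all genes tested, 26.9% had every AMH library above every control in the same way. None of the 3 passed the test across all genes, and neither did any other gene (0.0% called). These genes encode the small proteins that are attached to the autophagosome membrane. Map1lc3a (chromosome 2, 155276297 to 155278073, plus strand), which encodes LC3A, had 15.6, 7.34 and 18.6 CPM in controls 1, 2 and 3 and 55.9, 42.7 and 28.9 CPM in AMH 1, 2 and 3. The lowest AMH library lay above the highest control, and the AMH libraries themselves spread widely. The log2 fold change of Map1lc3a was 1.62 ± 0.41 (SE), with an unadjusted p of 0.00637 and an adjusted p of 0.116 in edgeR's quasi-likelihood test with Benjamini-Hochberg adjustment.

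Map1lc3b (chromosome 8, 121590361 to 121598760, plus strand), which encodes LC3B, the form most often followed as a marker of autophagosomes, had 86.5, 56.7 and 122 CPM in the controls and 198, 171 and 135 CPM in the AMH libraries. The groups did not overlap, and the gap was narrow between control 3 and AMH 3. Its log2 fold change was 0.92 ± 0.30 (SE; edgeR adjusted p = 0.116). The 3′ end of Map1lc3b overlaps Zcchc14 on the opposite strand, whose count equalled 11.1% of that of Map1lc3b, and the strand setting of the counting was not given in the sources used here. Gabarapl2 (chromosome 8, 111940703 to 111953612, plus strand), a GABARAP-type member also known for its part in Golgi transport, had 20.6, 15.4 and 23.6 CPM in the controls and 39.9, 34.4 and 28.4 CPM in the AMH libraries. As for the LC3 genes, no AMH library reached down to a control. The log2 fold change of Gabarapl2 was 0.78 ± 0.24 (SE; edgeR adjusted p = 0.116).

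Sqstm1 (chromosome 11, 50199366 to 50210827, minus strand) encodes p62, the cargo receptor, which also takes part in the antioxidant response and in inflammatory signalling. It had the highest mean CPM of the 10 genes and by far the widest spread. Its values were 186, 60.5 and 429 CPM in controls 1, 2 and 3 and 680.4, 619 and 446 CPM in AMH 1, 2 and 3. The highest library was 11.2 times the lowest, and control 3 was nearer to AMH 3 than to either other control. The group means were 225 ± 187 CPM for control and 582 ± 122 CPM for AMH (SD over 3 libraries each), a log2 fold change of 1.37 ± 0.64 (SE) with an edgeR adjusted p of 0.155. Without control 3 its log2 fold change was 2.23, with an edgeR adjusted p of 0.0230, in a fit that called 26.8% of all genes higher. Sqstm1 overlaps Mrnip on the opposite strand at its 3′ end, and the whole count of Mrnip equalled 1.91% of that of Sqstm1.

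The order of the 6 libraries was identical in Map1lc3a, Map1lc3b, Gabarapl2 and Sqstm1. From high to low it was AMH 1, AMH 2, AMH 3, control 3, control 1 and control 2. The plot of CPM by library shows this as the same staircase in 4 panels.

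**Figure D1:**
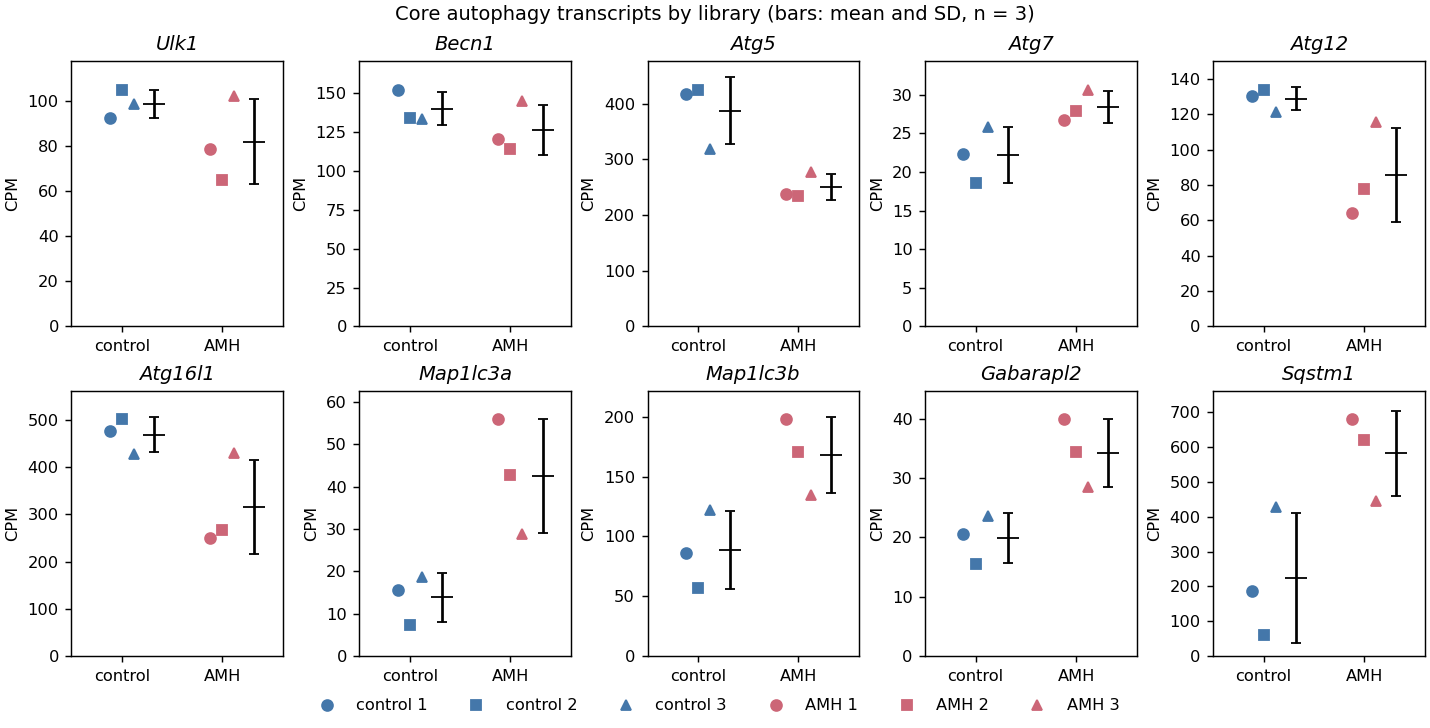
CPM on the TMM-scaled library size (vertical axis, from 0) of the 10 core autophagy genes in each control (blue) and AMH (red) library, with the mean and SD of 3 libraries as a bar; circles, squares and triangles are replicates 1, 2 and 3. All AMH points lie above all controls in Atg7, Map1lc3a, Map1lc3b, Gabarapl2 and Sqstm1 and below them in Atg5 and Atg12, and the groups overlap in Ulk1, Becn1 and Atg16l1.

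The 3 genes of the ATG12-ATG5-ATG16L1 assembly pointed the other way, with negative log2 fold changes of -0.57 to -0.63 that turned slightly positive (0.10 to 0.12) when libraries were scaled to oocyte markers. Atg5 (chromosome 10, 44268358 to 44364291, plus strand), the acceptor of ATG12, had 418, 426 and 318 CPM in the controls and 238, 235 and 277 CPM in the AMH libraries. Every AMH library lay below every control, with control 3 and AMH 3 facing each other across the gap. The log2 fold change of Atg5 was -0.63 ± 0.18 (SE), with an unadjusted p of 0.0101 and an edgeR adjusted p of 0.116.

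Atg12 (chromosome 18, 46732417 to 46741579, minus strand), the ubiquitin-like protein itself, had 131, 134 and 121 CPM in the controls and 64.3, 77.7 and 115 CPM in the AMH libraries. AMH 3 was close to the controls, and the gap to control 3 was small. Its log2 fold change was -0.58 ± 0.24 (SE; edgeR adjusted p = 0.126). Atg16l1 (chromosome 1, 87755870 to 87792428, plus strand), which brings the conjugate to the membrane, had 477, 501 and 427 CPM in the controls and 251, 266 and 430.2 CPM in the AMH libraries. AMH 1 and AMH 2 were low, while AMH 3 lay within the range of the controls, so the groups overlapped. The log2 fold change of Atg16l1 was -0.57 ± 0.24 (SE; edgeR adjusted p = 0.134). Without AMH 3 the log2 fold changes of Atg12 and Atg16l1 were both -0.89, with edgeR adjusted p of 0.0405 and 0.0400, in a fit that called 6.73% of all genes lower.

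Atg12 and Atg16l1 followed each other most closely of all 45 pairs of core genes. After each gene's log2 CPM was centred over the 6 libraries, the root mean square difference between the pair was 0.06 on the log2 scale, against 0.16 for the next closest pair, Ulk1 and Becn1, and 0.17 for Map1lc3b and Gabarapl2. The FPKM of Atg16l1 divided by that of Atg12 stayed between 0.885 and 1.009 over the 6 libraries, while each gene by itself varied by 2.00-fold and 2.08-fold. FPKM values are divided by gene length as well as library size, so that levels of different genes can be set side by side. The ratio of Atg5 to Atg12 was looser, from 2.55 in AMH 3 to 3.92 in AMH 1, with means of 3.18 for the controls and 3.22 for the AMH libraries. These ratios within a library do not depend on how libraries are scaled to each other. How closely genes outside the core followed Atg12 and Atg16l1 was not measured, so their closeness is not shown to be particular to them. Gdf9, the oocyte marker of highest mean CPM, had 11308, 11913 and 10040.5 CPM in the controls and 5542, 5457 and 10185 CPM in the AMH libraries. As in Atg16l1, its AMH 1 and AMH 2 were low and its AMH 3 lay within the range of the controls.

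Atg7 (chromosome 6, 114643097 to 114860614, plus strand), the activating enzyme upstream of that assembly, differed from its partners in direction. It had 22.3, 18.6 and 25.8 CPM in the controls and 26.7, 27.9 and 30.7 CPM in the AMH libraries. The groups did not overlap, but the step from control 3 to AMH 1 was small. The log2 fold change was 0.36 ± 0.20 (SE; edgeR adjusted p = 0.212). Processed pseudogenes lie within Atg7 on the same strand, and the largest by count, Gm19040, equalled 5.11% of the Atg7 count.

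The genes that start the process had overlapping groups and log2 fold changes whose sign depended on the scaling. Ulk1 (chromosome 5, 110784488 to 110810097, minus strand), the initiating kinase, had 92.4, 105 and 98.5 CPM in the controls and 78.6, 64.7 and 102 CPM in the AMH libraries. Becn1 (chromosome 11, 101285952 to 101302286, minus strand), the scaffold of the lipid kinase complex, had 152, 134 and 134 CPM in the controls and 120.3, 114 and 145 CPM in the AMH libraries. In both genes AMH 1 and AMH 2 were the lowest libraries and AMH 3 lay among the controls. The log2 fold change was -0.27 ± 0.20 (SE; edgeR adjusted p = 0.314) for Ulk1 and -0.15 ± 0.16 (SE; edgeR adjusted p = 0.478) for Becn1. That of Becn1 was 0.12 when libraries were scaled by their total count alone. With scaling to oocyte markers the values were 0.43 and 0.58, where the median of all genes was 0.74. Both genes were then higher in every AMH library, and the share of all genes that were so was not computed. With upper-quartile scaling the values were -0.49 and -0.37, where the median of all genes was -0.23.

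**Figure D2:**
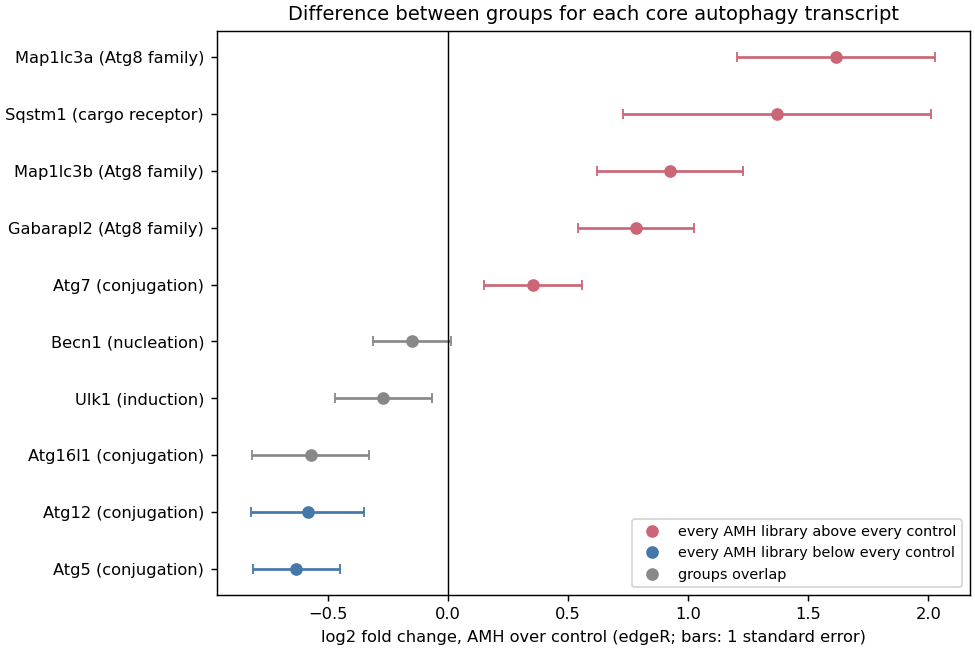
Log2 fold change of AMH over control (horizontal axis) with 1 standard error for each core gene, from edgeR's quasi-likelihood fit on 3 libraries per group, ordered by size. Values run from -0.63 for Atg5 to 1.62 for Map1lc3a, and colour tells whether the 2 groups of libraries overlap.

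Read as a set, the 10 genes had no common direction: 5 log2 fold changes were positive and 5 negative, with a median of 0.10. Over all 18868 genes tested, 9374 were positive and 9494 negative, with a median of -0.01. Of the core genes 0 passed an edgeR adjusted p of 0.05, as did 0.0% of all genes, and the lowest adjusted p of any gene was 0.116. At an unadjusted edgeR p under 0.05, 3 core genes were higher in AMH libraries, where 20.2% of all genes were, and 2 were lower, where 17.3% were. That split of all genes, 3814 higher and 3266 lower with TMM, moved to 5256 and 1237 with library size alone, to 3392 and 4854 with upper-quartile scaling and to 6996 and 16 with scaling to the oocyte markers, so directions are relative to TMM. Every AMH library lay above every control for 5 core genes, where 26.9% of all genes did so, and below every control for 2, where 23.3% did so. With so large a share of the transcriptome separated in this way, these counts are not a result about autophagy genes as such.

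Other fits called some of the genes. DESeq2 gave adjusted p of 0.00936 for Map1lc3a and 0.0411 for Gabarapl2 as higher in AMH libraries, where it called 9.36% of all genes higher. It gave Atg5 an adjusted p of 0.0490 as lower, where it called 3.59% lower. The limma-voom fit passed 0 core genes, with a lowest adjusted p of 0.0686. Without control 3, edgeR called Sqstm1, Map1lc3a, Map1lc3b and Gabarapl2 higher, with 26.8% of all genes, and Atg5 lower, with 11.2%. Without AMH 3, edgeR called Atg12 and Atg16l1 lower, with 6.73% of all genes, and 0 core genes higher, where 1.45% of all genes were. Leaving out any of the other libraries gave 0 calls.

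Within the Atg8 family the make-up of the transcript pool differed between libraries. The family counts 5 genes here, the 3 core members together with Gabarap and Gabarapl1, and their summed FPKM was 48.7, 23.7 and 66.1 in the controls and 161, 133 and 89.3 in the AMH libraries. Each gene's share of that sum is free of the scaling between libraries. Gabarap, the founding member of the GABARAP branch, made up 25.0%, 13.9% and 27.3% of the pool in the controls and 32.4%, 34.3% and 33.8% in the AMH libraries. All AMH libraries were above all controls, with a mean difference of 11.4 percentage points (two-sided exact permutation p = 0.1, the smallest that 3 against 3 libraries can give, adjusted p = 0.167 over the 5 shares).

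Map1lc3b made up 22.8%, 30.5% and 23.2% of the pool in the controls and 16.2%, 16.8% and 18.9% in the AMH libraries. Gabarapl2 made up 17.6%, 26.9% and 14.5% in the controls and 10.6%, 10.98% and 12.9% in the AMH libraries. Both shares were lower in every AMH library than in any control, although the CPM of both genes were higher there. The mean differences were -8.23 and -8.18 percentage points (exact permutation p = 0.1, adjusted p = 0.167 for each). Without control 2 the difference was -4.58 points for Gabarapl2 and 7.34 points for Gabarap, and as a share of summed CPM, not per length, that of Gabarapl2 was -4.15 points. The share of Map1lc3a averaged 24.6% ± 1.89 over the controls and 27.2% ± 1.76 over the AMH libraries (SD, n = 3 each; exact permutation p = 0.2). For Gabarapl1 the shares were 8.09% ± 4.45 and 10.5% ± 1.52 (exact permutation p = 0.6). Control 2 stood apart, with the lowest shares of Gabarap and Gabarapl1 and the highest of Map1lc3b and Gabarapl2. The stacked plot of shares shows these as a wider green and a narrower light blue and purple band in the AMH libraries.

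**Figure D3:**
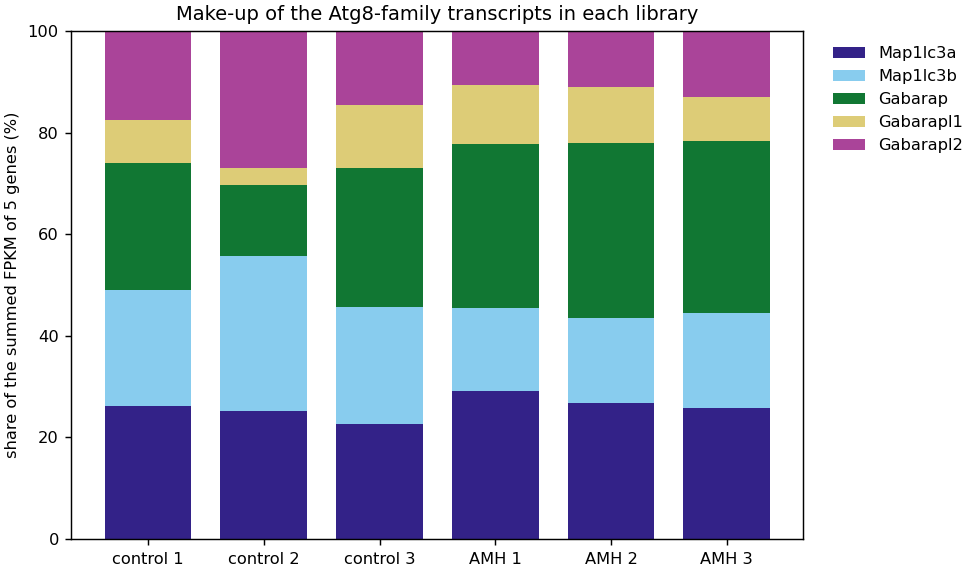
Share in percent of each of 5 Atg8-family genes in their summed FPKM (vertical axis) in each library (horizontal axis). Gabarap (green) took 13.9% to 27.3% in the controls and 32.4% to 34.3% in the AMH libraries, while Gabarapl2 (purple) took 14.5% to 26.9% and 10.6% to 12.9%.

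The levels of the 10 genes per length were far apart. By median FPKM in the controls the order was Atg5 (172), Sqstm1 (53.6), Atg12 (50.7), Atg16l1 (48.0), Becn1 (18.3), Ulk1 (14.4), Map1lc3a (12.8), Map1lc3b (11.1), Gabarapl2 (8.55) and Atg7 (3.10). The range of Sqstm1, from 17.3 to 121 FPKM in the controls, took in those of Atg12 and Atg16l1, and neighbours from Ulk1 to Gabarapl2 overlapped pair by pair. The ranges of Atg12 and Atg16l1 also overlapped, but within each control library Atg12 had the higher FPKM, as Map1lc3b had over Gabarapl2. In the AMH libraries Sqstm1 stood first, with a median FPKM of 182 and a range of 125 to 200.4, clear of Atg5 at 98.4 to 111. Map1lc3a followed with a median FPKM of 35.6, ahead of Atg12 (30.7), Atg16l1 (27.2), Map1lc3b (22.4), Becn1 (16.8), Gabarapl2 (14.6) and Ulk1 (11.98), each overlapping its neighbour. Atg7, although it encodes the enzyme that both conjugation reactions need, had the lowest FPKM in either group and did not overlap the gene above it.

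Ratios within a library, which do not depend on scaling, also separated the groups for some pairs. The FPKM of Map1lc3a divided by that of Map1lc3b was 1.15, 0.824 and 0.971 in the controls and 1.80, 1.59 and 1.37 in the AMH libraries. The FPKM of Sqstm1 divided by that of Nbr1, a related cargo receptor, was 0.886, 0.286 and 2.15 in the controls and 4.66, 3.86 and 2.74 in the AMH libraries. In both ratios every AMH library was above every control. For Sqstm1 over Nbr1 this had to be so, since Sqstm1 alone was higher and Nbr1 alone lower in every AMH library. Nbr1 had 60.5, 60.6 and 56.2 FPKM in the controls and 43.0, 47.1 and 45.6 FPKM in the AMH libraries.

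The genes whose pattern over the 6 libraries was nearest to that of Sqstm1, among 10636 genes averaging 5 CPM or more, were Prkar1b, Tagln2 and Aar2. Their root mean square differences from Sqstm1 in centred log2 CPM were 0.07, 0.08 and 0.08. Tagln2, an actin-binding protein gene, had 62.5, 17.8 and 136 CPM in the controls and 211, 208 and 132 CPM in the AMH libraries. Those nearest to Map1lc3a were Znhit1, Qtrt1 and Cbr1, with differences of 0.09, 0.09 and 0.10. None of these 6 genes is an autophagy gene of the lists used here.

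Markers of several cell types moved with the groups. Summed CPM of the 18 oocyte markers were 27062 to 35224.5 in the controls and 15702 to 26499.7 in the AMH libraries, and 14 of the 18 lay lower in every AMH library, as did 23.3% of all genes. Atg5, Atg12 and Atg16l1 were likewise highest in controls 1 and 2, and AMH 1 and AMH 2 were lowest in all 3. Summed CPM of 21 cumulus and granulosa markers, led by Serpine2 and Inha, were 1425, 1129.6 and 4605 in the controls and 4469, 3754 and 4319 in the AMH libraries. Control 3, the control of highest Sqstm1, thus had the highest sum of these markers, and controls 1 and 2 the lowest. The mean of that sum over the AMH libraries was 1.75 times that over the controls, and 3.25 times without control 3. CPM are relative to library size. Fewer cells of a type, less RNA per cell and more RNA from other cells therefore cannot be told apart in these libraries.

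Marker lists of other cell types also had counts. Summed CPM of 9 macrophage markers were 14.2 to 37.5 in the controls and 81.9 to 114 in the AMH libraries, with 6 of the 9 higher in every AMH library, as were 26.9% of all genes. The 5 erythroid markers summed to 1.88, 1.11 and 5.64 CPM in the controls and 357, 29.9 and 22.8 CPM in the AMH libraries, the same order of libraries as in Map1lc3a, Map1lc3b, Gabarapl2 and Sqstm1. The 8 ciliated and oviduct epithelium markers summed to 21.2 to 169 CPM in the controls and 139 to 713 CPM in the AMH libraries. Of the 8, 6 were higher in every AMH library, as were 26.9% of all genes. The groups overlapped in Krt8 and Krt18, which had 80.0 and 64.0 CPM in control 3 and 59.6 and 39.6 CPM in AMH 3. The mean epithelial sum was 4.87 times that of the controls, and 9.28 times without control 3 or 3.17 times without AMH 1. The 9 theca and stroma markers summed to 12.4 to 95.0 and 53.4 to 157 CPM, with the theca enzyme gene Cyp17a1 at or near 0. The 6 endothelial markers summed to 207 to 252 and 118 to 191 CPM, with Pecam1 the largest part and Emcn at 0 in all libraries. Of the 6, 3 lay lower in every AMH library, as did 23.3% of all genes. Only Cdh5, at 0.265 to 2.64 CPM, lay higher in every one, as did 26.9%. The endothelial sum was highest in control 2, control 1, control 3 and AMH 3, in that order, as was the oocyte sum. Whether the counts of this list came from endothelial cells was not tested. The lowest exact permutation p among the 7 sums was 0.1 (adjusted p = 0.175), and that of the cumulus and granulosa sum was 0.4 (adjusted p = 0.4). The part of these cells in the values of the autophagy genes was not tested.

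**Figure D4:**
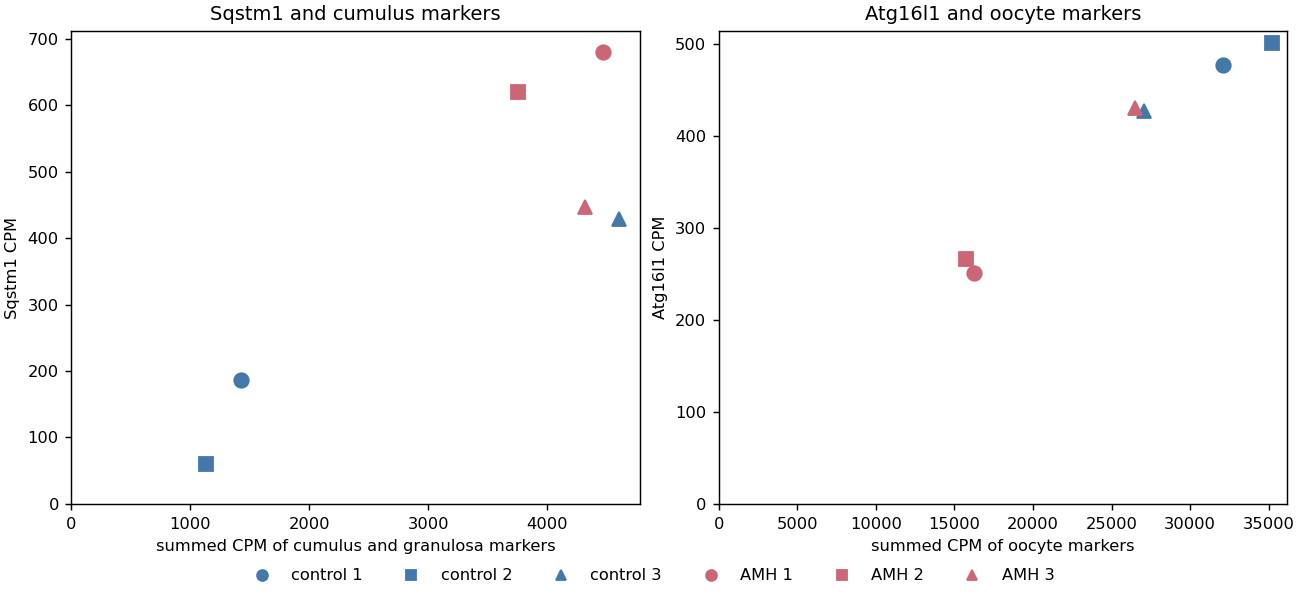
Left, CPM of Sqstm1 against the summed CPM of 21 cumulus and granulosa markers, and right, CPM of Atg16l1 against the summed CPM of 18 oocyte markers, with 1 point per library (blue control, red AMH). Control 3 and AMH 3 lie side by side in both panels, at 429 and 446 CPM of Sqstm1 and at 427 and 430.2 CPM of Atg16l1.

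The rest of the pathway was read from 61 further genes listed by role, all of them tested. Of these 0 passed the edgeR test, 38 had positive and 23 negative log2 fold changes, and the median was 0.37. Every AMH library lay above every control for 20 of the 61 and below for 15, or 32.8% and 24.6% of the list, beside 26.9% and 23.3% of all genes. At an unadjusted edgeR p under 0.05, 17 were higher, beside 20.2% of all genes, and 10 lower, beside 17.3%. With DESeq2 8 of the 61 passed as higher, beside 9.36% of all genes, and 0 as lower, beside 3.59%, and with limma-voom 0 passed. Without control 3, edgeR called 24 higher and 5 lower, where it called 26.8% and 11.2% of all genes. Without AMH 3, it called 0 higher and 5 lower, where it called 1.45% and 6.73% of all genes. Of the 16 genes of this list whose CPM are given below, 13 passed without control 3 (edgeR adjusted p from 0.0151 to 0.0437), the others being Rubcn, Ulk2 and Tfe3. Rubcn and Tax1bp1 passed without AMH 3 (edgeR adjusted p of 0.0427 and 0.0469), as did Rab7, which is also named below. Most of the 16 were picked for the smallest p of their role in these same libraries. Their number passing therefore cannot be set beside the shares of the list or of all genes.

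Apart from the Atg8 family, whose 5 genes all had positive log2 fold changes, each step of the pathway held genes of either direction, as the plot by step shows. Among the induction genes, Rb1cc1, whose product FIP200 is the scaffold of the ULK1 complex, averaged 204 ± 39.1 CPM over the controls and 138 ± 17.2 CPM over the AMH libraries (SD, n = 3 each, controls first, here and below). Ulk2, the kinase related to Ulk1, had 34.2 ± 7.42 and 50.01 ± 8.28 CPM. Of 7 nucleation genes beside Becn1, 5 had negative log2 fold changes. Pik3r4, the regulatory subunit of the Beclin 1 lipid kinase complex, had 179.6 ± 38.0 and 119 ± 14.2 CPM. Rubcn, whose product Rubicon binds that complex and restrains autophagy, had 1058 ± 109.8 and 650.1 ± 164 CPM. Both lay lower in every AMH library, with log2 fold changes of -0.60 and -0.70 that were 0.16 and 0.01 when libraries were scaled to oocyte markers.

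Of 11 genes for membrane supply, 8 had positive log2 fold changes. Wipi2, which reads the lipid mark and recruits ATG16L1, had 26.7 ± 9.72 and 53.9 ± 16.3 CPM with overlapping groups, and the scramblase gene Tmem41b had 69.5 ± 10.01 and 48.7 ± 2.39 CPM. The conjugation genes beside the core ones split without overlap, 5 of 7 higher and 2 lower in every AMH library, as were 26.9% and 23.3% of all genes. Atg4b, the protease that primes and recycles Atg8-family proteins, had 41.0 ± 5.71 and 62.4 ± 5.29 CPM. Atg16l2, the relative of Atg16l1, had 5.08 ± 4.34 and 17.4 ± 4.34 CPM, a log2 fold change of 1.78 that was 2.69 without control 3 (edgeR adjusted p = 0.0179) and 1.32 without control 2. Gabarap had 21.6 ± 14.5 and 80.5 ± 19.4 CPM, with every AMH library higher (log2 fold change 1.90, edgeR adjusted p = 0.116). Gabarapl1 had 9.22 ± 7.88 and 28.3 ± 10.7 CPM with overlapping groups, since AMH 3 lay below control 3, and a log2 fold change of 1.62 that was 2.46 without control 3.

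The 13 cargo receptors other than Sqstm1 were evenly divided, with 6 positive and 7 negative log2 fold changes and a median of -0.05. Tax1bp1, a receptor for ubiquitin-tagged cargo, had 402 ± 38.3 and 275 ± 30.3 CPM, lower in every AMH library, and Calcoco1, a receptor for the endoplasmic reticulum and Golgi, had 42.7 ± 12.7 and 89.9 ± 27.6 CPM, higher in every one. The 8 fusion genes had 4 positive and 4 negative log2 fold changes, with a median of 0.03. Among them 3 genes, Vamp8, Ykt6 and Tecpr1, were higher in every AMH library, beside 26.9% of all genes. Only 1 gene, Rab7, was lower in every AMH library, beside 23.3%. Vamp8 and Ykt6, which encode SNARE proteins that join autophagosome and lysosome, had 13.5 ± 4.84 against 33.0 ± 9.18 CPM and 17.1 ± 3.72 against 28.5 ± 5.65 CPM. Of 9 lysosomal genes and their regulators, 8 had positive log2 fold changes with a median of 1.03, but in 6 of the 9 the groups overlapped. Over all 18868 genes tested, the groups overlapped in 9396. Every AMH library was higher for 2 of the 9 and lower for 1, beside 26.9% and 23.3% of all genes. The protease gene Ctsd had 69.2, 60.0 and 173 CPM in the controls and 221, 212 and 183 CPM in the AMH libraries, again with control 3 close to AMH 3. Its log2 fold change was 1.03, and 1.66 without control 3 (edgeR adjusted p = 0.0151). Tfe3, a transcription factor of lysosomal genes, was the exception, with 125 ± 8.54 and 89.8 ± 7.86 CPM.

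**Figure D5:**
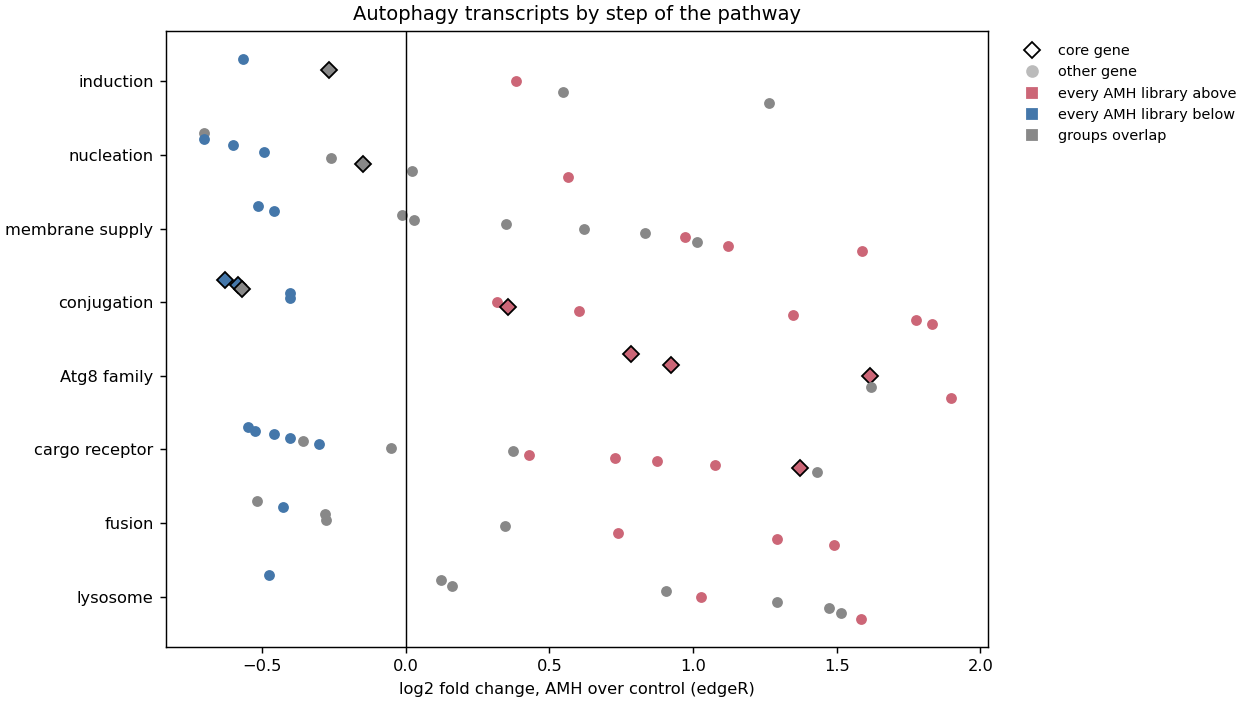
Log2 fold change of AMH over control (horizontal axis, edgeR) for the 10 core genes (diamonds) and 61 other autophagy genes (circles), arranged by step of the pathway, with colour for whether the groups of 3 libraries overlap. Conjugation and cargo receptor genes fall on both sides of 0, and all 5 Atg8-family genes fall to its right.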

How the data were processed

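Oocyte RNA of 3 control and 3 AMH libraries was sequenced after SMART amplification and poly-T selection, per the labels' protocols. The authors deposited whole-number counts per gene and FPKM values for the same 54532 genes. HISAT2 2.0.5, featureCounts 1.5.0-p3, DESeq2 1.20.0 and GRCm38 are named in the submitters' processing notes, with settings not given in the sources used here. Each deposited FPKM equalled the count over gene length and over a median-of-ratios library size. Group and library number were taken from the sample titles.

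Counts were tested with edgeR 4.0.16 (R 4.3.3; TMM scaling, filterByExpr, robust quasi-likelihood fit, design of group alone), with Benjamini-Hochberg adjustment over 18868 genes at 0.05, on code checked with simulated data. Standard errors come from the F statistic. Exact permutation tests, two-sided, compared shares and marker sums. Depth of at least 66392859 counts per library kept counting error small beside the spread between libraries. Alternatives were DESeq2 1.42.0, limma-voom and limma 3.58.1 on log2(FPKM + 1) and log2(FPKM + 0.1), other scalings and filters, a replicate block, and leaving out each library. Values of marker sums and of other autophagy genes under these alternatives were added after seeing the data.

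The members and lists were chosen with earlier results of these data known. Named genes are the 10 core genes, up to 2 of smallest p per role of the wider list, Gabarap and Gabarapl1, at most 2 of highest CPM per marker list, and the 3 genes nearest in pattern to the core genes of highest CPM and smallest p. Nbr1, Rab7, Tecpr1, Cdh5, Emcn, Cyp17a1, Krt18 and genes overlapping a core gene were named after their values were seen. Coordinates are those of the deposited table (GRCm38).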

Additional observations from a re-analysis of the deposited data

How the results depend on the processing

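Of the values of the 10 core genes under the alternatives, 164 kept their direction and side of the threshold, 10 passed it newly and 6 changed sign. DESeq2 called 4095 genes, 3 core genes and 8 other autophagy genes, against 0 of each in edgeR. Leaving out 1 library in turn gave 0 to 7513 genes, 0 to 5 core genes and 0 to 29 other autophagy genes, with 7513, 5 and 29 without control 3 and 1607, 2 and 5 without AMH 3. It gave 2 to 5 core genes lower in every AMH library, 5 of them without AMH 3. The share of all genes lower in this way was not computed for these fits or for the other scalings, so these counts cannot be read by themselves. Scaling to the oocyte markers shifted the median log2 fold change of all genes from -0.01 to 0.74 and left 0 core genes lower in every AMH library. Under it the log2 fold change was 0.43 for Ulk1, 0.58 for Becn1, 0.12 for Atg5, 0.10 for Atg12 and 0.12 for Atg16l1, and 0.23 for Rb1cc1, 0.16 for Pik3r4, 0.0105 for Rubcn, 0.25 for Tmem41b, 0.20 for Tax1bp1 and 0.27 for Tfe3. The endothelial marker sum was then 1.04 times the control. Library size alone gave 0.12 for Becn1. At an unadjusted edgeR p under 0.05, all genes split into 3814 higher and 3266 lower with TMM, 5256 and 1237 with library size alone, 3392 and 4854 with upper-quartile scaling (median -0.23), and 6996 and 16 with oocyte scaling. The log2 fold changes of Map1lc3a (1.30 to 2.39), Map1lc3b (0.67 to 1.67), Gabarapl2 (0.57 to 1.55) and Sqstm1 (0.91 to 2.23) were positive under all alternatives run. With the replicate block 0 genes were called (lowest adjusted p 0.200), and the numbers did not pair the libraries, whose deviations correlated by 0.06, -0.10 and -0.25. The causes of these differences were not tested.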
